A study of Homo sapiens with 27 samples.

Results

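Transcript 3′ ends found in heavy polysomes of A549 cells were compared with those in the cytosol of the same line. All 6 libraries came from cells given the vehicle DMSO alone, 3 from heavy polysomes and 3 from cytosol, out of 27 libraries in the series. A549 is an established human line of non-small cell lung cancer, and the labels name no genetic change in it. Membership followed the sample labels, not any measured value. Nothing in the labels ties a library to a separate culture, so p-values measure the spread between these libraries, which may be technical. Both fractions were sequenced by 3′-seq, in which poly(A)+ RNA is copied from an oligo-dT primer so that reads pile up as peaks at the ends of transcripts.

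Polysomes are messenger RNAs that carry several ribosomes at once, and heavy polysomes are those that carry many. In general a messenger with a long coding region and frequent initiation carries more ribosomes than one with a short coding region or slow initiation, and RNAs that are not translated carry none. Mitochondrial messengers are read inside the organelle by its own ribosomes. The series asks how well transcripts ending at internal polyadenylation sites are translated relative to those ending in the last exon, and polysome libraries bear on that question by showing which ends the ribosome-laden fraction holds.

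Peaks overlapping on a strand were merged over the 6 libraries into 154804 peaks, and the 22037 of these (14.2%) listed in every library were tested. The deposited lists were of 2 kinds. Polysome libraries 1 and 2 listed 77.1% and 77.8% of their peak numbers, whereas polysome library 3 and the cytosol libraries listed 31.7% to 34.2%. Total counts ran from 3372128 to 5377638 in cytosol and from 3609493 to 11997535 in polysomes. The tested peaks held 92.3% to 94.5% of the counts in cytosol and 95.9% in polysome library 3, but 50.7% and 57.0% in polysome libraries 1 and 2. A peak that a list lacks is therefore not a count of 0. Cytosol library 3 and polysome library 3 also stood apart from the others of their fraction: log2 levels correlated across peaks at 0.969 between cytosol libraries 1 and 2 but at 0.930 and 0.941 with cytosol library 3, and at 0.965 between polysome libraries 1 and 2 but at 0.907 and 0.921 with polysome library 3. Levels are in CPM, the count of a peak relative to the scaled total of its library in tested peaks, so a lower value in polysomes is a lower share of that fraction, not a smaller amount of RNA in the cell. Positions are as in the lists, counted from 1, on the human build hg19. No gene annotation of that build was used, so peaks are named by position and strand, and whether one lies in an exon, an intron or a UTR is not stated.

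The first comparison asked which ends were held by heavy polysomes above or below their share of the cytosol. Of the 22037 tested peaks, 3777 (17.1%) were higher and 3934 (17.9%) lower in polysomes, in all 35.0% (edgeR quasi-likelihood test, Benjamini-Hochberg adjusted p under 0.05). The median log2 fold change over all tested peaks was 0.01, with a median standard error of 0.32. Calls were near balance in number but not in size. The scaling of the libraries (TMM) places the bulk of the fold changes near 0, so the balance in number partly follows from it. Tested peaks also had to be listed in every library. All cytosol lists are short and those of polysome libraries 1 and 2 long, so peaks weak in cytosol can drop out more easily than peaks weak in polysomes. The part of this in the difference in size was not tested. The sizes given next are of called peaks only. Among higher peaks 2663 changed by at least 1 on the log2 scale and 62 by at least 2, and among lower peaks 2965 and 423 did. At this spread few peaks at low levels could be called: with a mean of up to 5 CPM 6.07% were called higher and 9.52% lower, and at 20 to 100 CPM 27.5% and 23.8%. The count of calls was 4977 without polysome library 2, and with polysome library 3 alone against the 3 cytosol libraries it was 3327, of which 1714 were higher and 1613 lower. In that last fit the polysome arm is 1 library with no spread of its own, which is assumed to vary like the cytosol libraries; its values are given below only to show what library 3 holds.

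**Figure D1:**
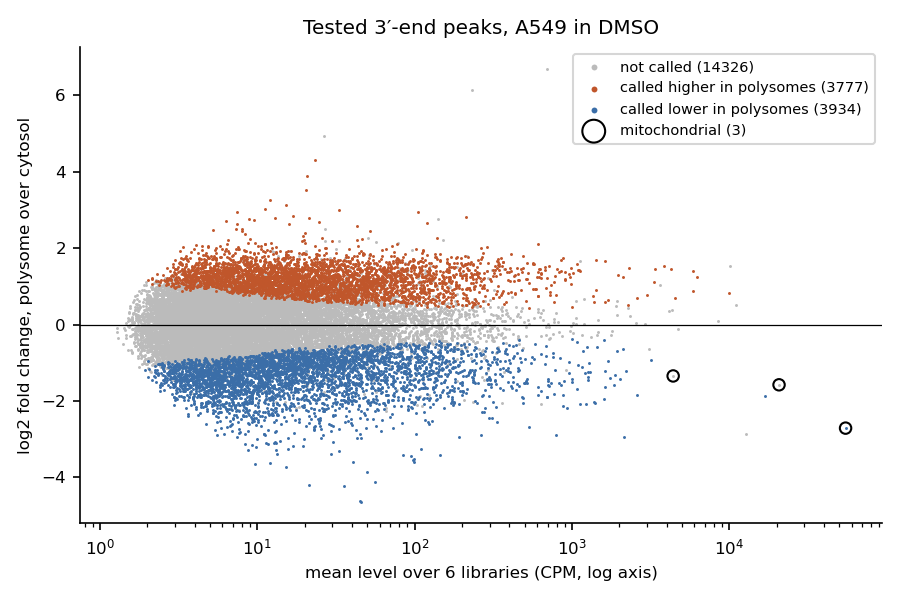
Each point is one of 22037 tested peaks, placed by its mean level over the 6 libraries (CPM, log axis) and its log2 fold change of polysome over cytosol. The 3777 peaks called higher and 3934 called lower spread about evenly around 0, the lower ones reach further from it, and the 3 circled mitochondrial peaks all lie below 0. Large rises and large falls need not be equally likely to be listed in all 6 libraries.

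RNA of the mitochondrial genome took a smaller share of the polysome libraries than of the cytosol libraries. Its share of the counts in tested peaks was 11.1%, 10.1% and 16.1% in the cytosol libraries and 1.89%, 1.98% and 4.87% in the polysome libraries. Only peaks listed on the mitochondrial chromosome entered this share. The highest polysome library lay below the lowest cytosol library, and within each fraction library 3 had the highest share. The means were 12.5 ± 3.22% and 2.91 ± 1.69% (SD, n = 3), a ratio of 4.28 (exact permutation test, two-sided, p = 0.1, below which a design of 3 against 3 cannot go; 0.15 after adjustment over the 3 single-value comparisons made). As a share of all listed counts it was 10.3%, 9.37% and 15.2% in cytosol and 0.96%, 1.13% and 4.67% in polysomes.

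The strands of the mitochondrial genome, from which different messengers are read, differed in how firmly this was seen. The plus-strand peak covers the whole genome from 1 to 16571 and stood at 90106, 83909 and 111472 CPM in cytosol and at 11242, 11996 and 20396 CPM in polysomes. It had the highest level of all tested peaks, and its groups lay far apart, 6.54-fold by their means (log2 fold change -2.71 ± 0.25 SE, adjusted p = 0.000203, edgeR). The minus-strand peak from 1 to 494 stood at 21831, 15478 and 55772 CPM in cytosol and at 5424, 5525 and 20265 CPM in polysomes. Polysome library 3 lay above cytosol library 2, so the groups overlapped, and the peak was not called (log2 fold change -1.58 ± 0.85, adjusted p = 0.227, edgeR; with the replicate number as a block -1.65, adjusted p = 1.87e-13). The other minus-strand peak, from 2972 to 16571, gave -1.34 ± 0.74 (adjusted p = 0.234, edgeR; with the block -1.44, adjusted p = 6.48e-12), and its groups overlapped too. A difference between the strands was not tested.

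Among peaks listed on other chromosomes than the mitochondrial one, the 4 with the highest levels behaved differently from each other. The chromosome is that of the lists, and where the reads of a peak came from was not tested. On chromosome 19, plus strand, the peak from 49469530 to 49470240 stood at 29318, 30568 and 19389 CPM in cytosol and at 8950, 7562 and 5338 CPM in polysomes. Every polysome library was below every cytosol library, by 3.63-fold in the means (log2 fold change -1.86 ± 0.23, adjusted p = 0.000567, edgeR). The merged peak on chromosome 1, plus strand, from 564461 to 570305 stood at 21455, 20484 and 25908 CPM in cytosol and at 3141, 542.2 and 5608 CPM in polysomes. Its groups did not overlap either, but polysome library 2 lay far below the other libraries of its fraction, and the peak was not called (-2.87 ± 0.92, adjusted p = 0.0773, edgeR).

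The 2 other peaks of very high level were spread by library number as well as by fraction. On chromosome 12, plus strand, from 53346485 to 53346705, the cytosol libraries stood at 7179, 5326 and 3024 CPM and the polysome libraries at 21559, 18984 and 4560 CPM. Polysome libraries 1 and 2 were far above all others, whereas library 3 was lowest in both fractions and lay within the cytosol range (log2 fold change 1.54 ± 0.71, adjusted p = 0.168, edgeR; with the block 1.34, adjusted p = 0.0228; with polysome library 3 alone -0.18). On chromosome 7, plus strand, from 134225623 to 134226326, the values were 11903, 10982 and 4139 CPM in cytosol and 16609, 16162 and 5964 CPM in polysomes. Each polysome library exceeded the cytosol library of its number, but the groups overlapped (0.52 ± 0.60, adjusted p = 0.551, edgeR; with the block adjusted p = 0.000177; with polysome library 3 alone -0.60).

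The 10 steepest called rises, among peaks of at least 10 CPM in the higher fraction whose groups did not overlap, ran from log2 fold changes of 2.84 to 4.32. As background, 23.4% of all tested peaks were higher in polysomes with no overlap, and the 10 were picked for their size. The steepest lay on chromosome X, minus strand, from 106594403 to 106594909, where the cytosol libraries stood at 2.62, 1.64 and 2.42 CPM and the polysome libraries at 42.5, 52.8 and 37.7 CPM. All 3 polysome libraries were high, 19.9-fold above cytosol in the means (log2 fold change 4.32 ± 0.29, adjusted p = 1.86e-05, edgeR). The third steepest, on chromosome 9, plus strand, from 131095297 to 131095316, went from 2.84, 2.87 and 4.16 CPM in cytosol to 51.2, 31.7 and 28.8 CPM in polysomes (3.52 ± 0.32, adjusted p = 6.49e-05, edgeR). That on chromosome 10, minus strand, from 65863850 to 65863874 went from 5.47, 4.92 and 12.1 CPM to 71.5, 50.7 and 52.8 CPM (3.00 ± 0.34, adjusted p = 0.000167, edgeR). In each of these the lowest polysome library was several times the highest cytosol library.

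Polysome library 3 lay between the other polysome libraries in the rise on chromosome 10 and in 3 more of the 10. The peak on chromosome 2, minus strand, from 88870441 to 88870532 stood at 31.7, 13.1 and 20.5 CPM in polysomes, that on chromosome 2, plus strand, from 8890331 to 8890356 at 30.5, 23.2 and 28.0 CPM, and that on chromosome 4, minus strand, from 109624540 to 109624565 at 24.5, 17.5 and 17.8 CPM. Their cytosol libraries lay between 1.73 and 4.16 CPM. The lowest of these values, 1.73 CPM in the minus-strand peak of chromosome 2, lies at the smallest count a list holds, 5. The size of that rise is therefore uncertain.

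In the other 4 steep rises polysome library 3 was the lowest of its fraction, as it was in those on chromosomes X and 9. The second steepest was on chromosome 6, minus strand, from 88066478 to 88066498, where the polysome libraries stood at 79.9, 27.4 and 8.61 CPM against 2.84, 2.46 and 2.42 CPM in cytosol (3.87 ± 0.93, adjusted p = 0.0251, edgeR). This call was lost without any one of the cytosol libraries (adjusted p = 0.0819, 0.0858 and 0.0807 without libraries 1, 2 and 3). Also on chromosome 6, plus strand, from 85997991 to 85998310, they stood at 40.1, 40.7 and 7.81 CPM against 5.03, 3.48 and 3.81 CPM (2.84 ± 0.63, adjusted p = 0.0127, edgeR), and the call was lost without cytosol library 2 (adjusted p = 0.0562) or 3 (adjusted p = 0.0504). With polysome library 3 alone the log2 fold change was 0.92 (adjusted p = 0.179). The peak on chromosome 6, plus strand, from 111884174 to 111884194 stood at 20.9, 11.4 and 6.998 CPM against 1.09, 1.64 and 2.42 CPM (2.96 ± 0.48, adjusted p = 0.00107, edgeR). Its lowest cytosol value, 1.09 CPM, lies at the smallest count a list holds, 5, so the size of this rise is uncertain. The broad peak on chromosome 6, plus strand, from 151670942 to 151673302, which spans 2361 bases, stood at 29.1, 12.5 and 31.5 CPM in cytosol and at 245.6, 219.8 and 91.8 CPM in polysomes (2.94 ± 0.51, adjusted p = 0.00583, edgeR). Its call was lost with the replicate block (2.92, adjusted p = 0.086).

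Narrow peaks were common among these rises. Of the 10, 6 were at most 30 bases wide, whereas 1.33% of all tested peaks were (292), and 1 of the 10 steepest falls was. As a class the narrow peaks did not lean towards polysomes: 12.0% were called higher and 13.7% lower, with a median log2 fold change of -0.05. Peaks at least 100 bases wide, fitted alone, gave 3614 higher and 3685 lower of 20157.

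A further 3 peaks had larger fold changes than any called rise but did not pass the test, and they were singled out after their values were seen. On chromosome 8, plus strand, from 62491093 to 62492515, polysome libraries 1 and 2 stood at 1960 and 2165 CPM and polysome library 3 at 5.11 CPM, within the cytosol range of 4.50 to 19.7 CPM (6.69 ± 2.30, adjusted p = 0.0926, edgeR). On chromosome 1, plus strand, from 157043249 to 157044775, they stood at 627.7, 728.5 and 13.5 CPM against 5.47, 9.22 and 4.16 CPM in cytosol (6.15 ± 1.72, adjusted p = 0.0561, edgeR). On chromosome 7, plus strand, from 143305439 to 143306344, they stood at 73.9, 76.4 and 2.69 CPM against 1.97, 1.02 and 2.08 CPM (4.94 ± 1.43, adjusted p = 0.0558, edgeR). There the lowest cytosol value, 1.02 CPM, lies at the smallest count a list holds, 5. In all 3 the high values belonged to the 2 polysome libraries with the long lists; the part of list kind in this was not tested.

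The 10 steepest falls, picked by the same rule, ran from -4.64 to -3.61, and 24.4% of all tested peaks were lower in polysomes with no overlap. The first 4 lay in 2 close pairs on chromosome 19 and were alike in width, 115 to 118 bases. On the minus strand, the peak from 50637007 to 50637123 stood at 47.0, 70.5 and 147.2 CPM in cytosol and at 3.59, 2.64 and 4.58 CPM in polysomes (log2 fold change -4.64 ± 0.49, adjusted p = 0.000381, edgeR). Its neighbour from 50642376 to 50642493 stood at 46.4, 72.3 and 139.2 CPM and at 3.89, 2.36 and 4.58 CPM. On the plus strand, the peak from 48453554 to 48453668 stood at 27.6, 61.7 and 114.6 CPM and at 2.69, 3.47 and 4.58 CPM, and that from 48442799 to 48442913 at 20.3, 23.6 and 77.2 CPM and at 2.69, 1.25 and 2.96 CPM. Cytosol library 3 was the highest of its group in all 4, and no polysome library came near the cytosol values. With polysome library 3 alone the 4 changes were -4.25 to -3.73 and none of the 4 was called (adjusted p = 0.0681, 0.0521, 0.136 and 0.179, edgeR).

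In 3 of the other falls the cytosol libraries were close to each other. The peak on chromosome 20, minus strand, from 55933902 to 55934314 stood at 110.4, 103.3 and 104.9 CPM in cytosol and at 7.18, 6.11 and 4.84 CPM in polysomes, 17.6-fold lower in the means (-4.13 ± 0.22, adjusted p = 1.47e-05, edgeR). That on chromosome 16, minus strand, from 3421849 to 3422093 went from 97.5, 82.2 and 99.4 CPM to 5.68, 5.98 and 7.54 CPM, 14.5-fold lower (-3.86 ± 0.22). The most abundant of the 10, on chromosome 1, minus strand, from 238106952 to 238107052, went from 193.9, 159.8 and 197.7 CPM to 13.2, 13.8 and 18.3 CPM, 12.2-fold lower (-3.61 ± 0.21). In these 3 the spread within a fraction was small beside the distance between fractions. The peak on chromosome 5, plus strand, from 140105742 to 140105974 was lower in level, with 13.6, 26.6 and 13.2 CPM in cytosol and 1.496, 1.39 and 1.35 CPM in polysomes (-3.65 ± 0.40, adjusted p = 0.000138, edgeR). That on chromosome 2, minus strand, from 140979100 to 140979143 went from 23.2, 17.4 and 25.3 CPM to 2.99, 0.69 and 2.15 CPM (-3.62 ± 0.43). For these peaks on chromosomes 5 and 2 the lowest polysome value lies at the smallest count a list holds, 5. The size of their falls is therefore uncertain. The peak on chromosome 1, plus strand, from 186065555 to 186065574 was as spread in cytosol as the first 4, at 20.8, 16.0 and 47.4 CPM, with cytosol library 3 highest, against 2.09, 0.83 and 3.77 CPM in polysomes (-3.74 ± 0.62, adjusted p = 0.00289, edgeR; with polysome library 3 alone -2.86, adjusted p = 0.0858).

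**Figure D2:**
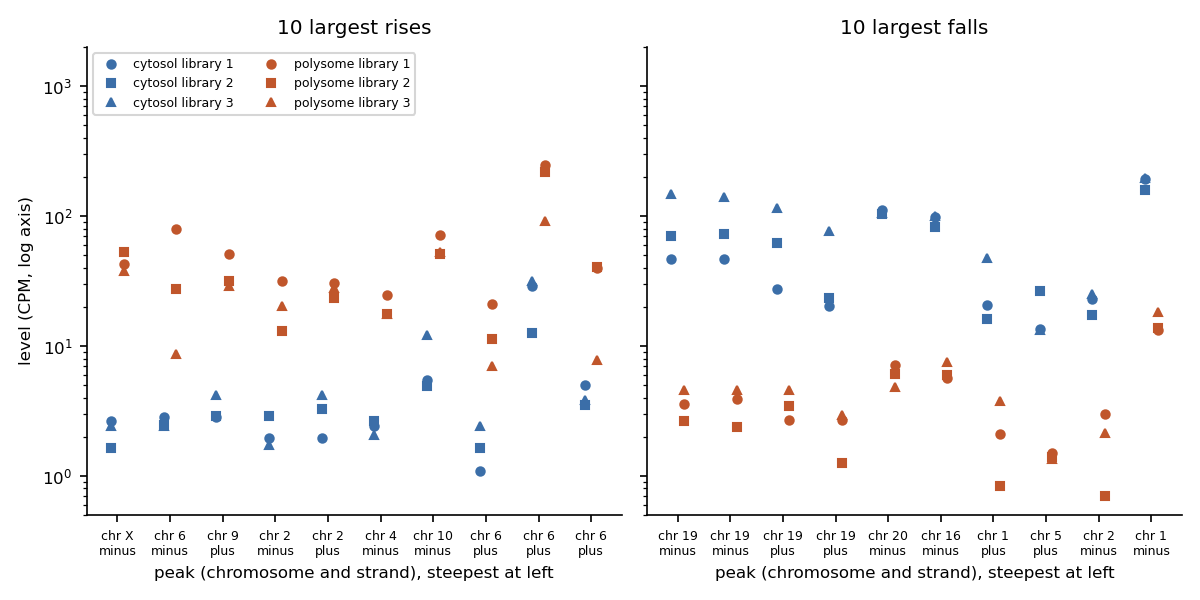
Levels (CPM, log axis) of the 10 steepest called rises and 10 steepest falls, each named by chromosome and strand, with cytosol libraries in blue and polysome libraries in orange and 1 marker shape per library number. Fractions do not overlap in any peak shown, as the rule required; triangles show polysome library 3 lowest in several rises and cytosol library 3 highest in the first 4 falls.

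Called peaks that lie close together on a strand mostly moved in the same direction. Neighbouring tested peaks of a strand were compared wherever both had been called. Up to 500 bases apart, 759 of 761 such pairs moved in the same direction, and at 500 to 1000 bases 298 of 298 did. The count was 458 of 470 at 1000 to 3000 bases and 376 of 411 (91.5%) at 3000 to 10000 bases. Beyond that the match loosened, to 422 alike and 185 opposed (69.5% alike) at 10000 to 50000 bases and 541 of 980 (55.2%) at 50000 to 1000000 bases, close to an even split. The correlation of the log2 fold changes of neighbours fell from 0.84 over 3275 pairs within 500 bases to 0.04 over 7436 pairs beyond 50000 bases. This is a description: the pairs share libraries, neighbouring pairs share a peak, and it was chosen after the data were seen. Whether close peaks are separate ends or parts of 1 end is not known here. The counts by direction leave out every pair with an uncalled peak.

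**Figure D3:**
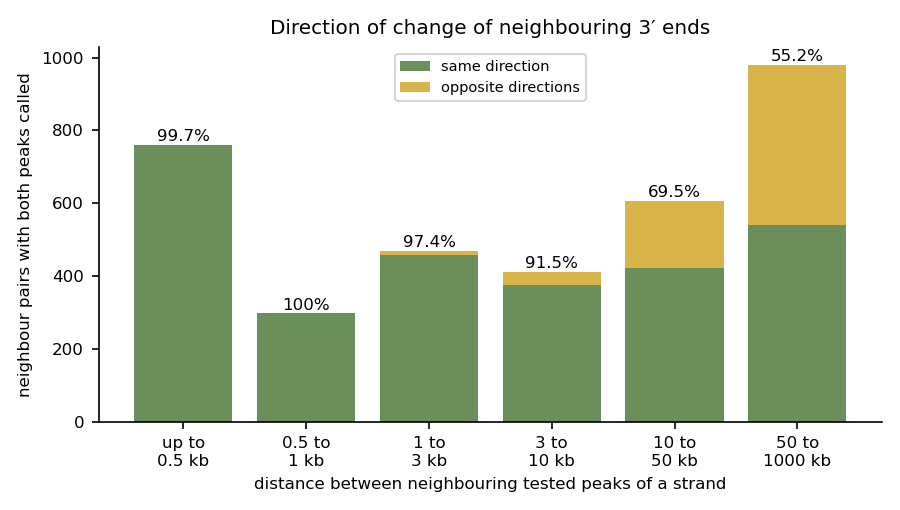
Bars count the pairs of neighbouring tested peaks of a strand in which both were called, by the distance between them, split into pairs that moved in the same direction and in opposite directions; the number above each bar is the percent that moved in the same direction. It is 99.7% within 500 bases and 55.2% beyond 50000 bases.

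The second comparison asked whether an end that lies upstream of a stronger end on its strand, the position an internal polyadenylation site would have, is held by polysomes to the same extent as the stronger end. Each tested peak was set against its nearest stronger tested peak downstream within 50 kb, where stronger means a higher mean CPM over the 6 libraries. A partner can therefore be the stronger through 1 fraction only: by mean shares, the weaker peak held more than 50% of its pair in cytosol and less than that in polysomes in 94 of 795 called upstream pairs, and the reverse in 137. Whether both ends of such a pair belong to 1 gene is not known here. Of 9352 such pairs the upstream peak rose against its partner in 413 (4.42%) and fell in 382 (4.08%; edgeR quasi-likelihood test with a term for each library, adjusted p under 0.05). In the mirror comparison the weaker end lay downstream of its partner. There 407 (5.40%) of 7539 weaker ends rose and 536 (7.11%) fell. A peak can be the partner in several pairs and can enter both comparisons, so these are counts of pairs that are not independent.

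Most pair calls came from distant partners. Up to 1000 bases apart, 5 upstream peaks rose and 33 fell of 2795, and from 20000 to 50000 bases 203 rose and 209 fell of 1823. With partners sought within 3 kb only, 14 rose and 15 fell of 4480 upstream pairs, and 24 rose and 46 fell of 3708 downstream pairs. The median shift, in contrast, varied little with distance: the upstream peak was lower against its partner in polysomes by a median log2 change of -0.18 up to 1000 bases and from 20000 to 50000 bases alike, with -0.19 to -0.17 between. For weaker peaks downstream the medians ran from -0.04 to 0.04.

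The same pair counts, taken library by library, show this shift again and are not a second line of evidence for it. Taking the log2 ratio of the weaker end to its partner, the median across upstream pairs was -1.55, -1.62 and -1.58 in the cytosol libraries and -1.67, -1.72 and -1.76 in the polysome libraries. All 3 polysome libraries lay below all 3 cytosol libraries, with means of -1.71 ± 0.04 and -1.58 ± 0.04 (SD, n = 3; exact permutation test, two-sided, p = 0.1, 0.15 after adjustment). The means differed by -0.13, beside a median fitted change of -0.18 over all upstream pairs. Over downstream pairs the medians were -1.42, -1.38 and -1.42 in cytosol and -1.39, -1.38 and -1.39 in polysomes, and the groups overlapped (exact permutation p = 0.4, also after adjustment). Whether the shift of upstream pairs differs from that of downstream pairs was not tested.

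**Figure D4:**
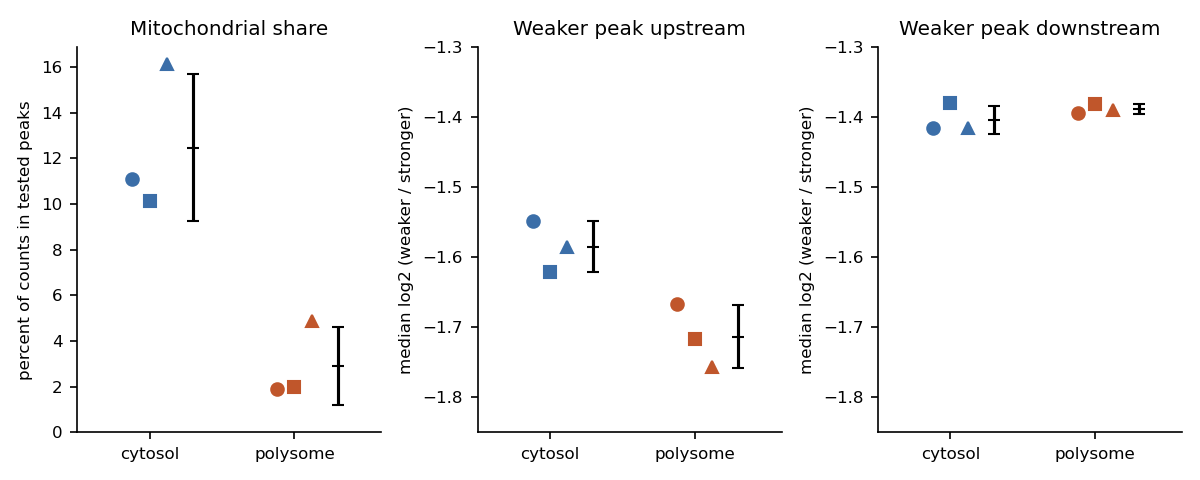
Points are libraries, with 1 marker shape per library number, and bars show the mean ± SD of 3. The mitochondrial share and the median log2 ratio of upstream pairs are lower in every polysome library than in every cytosol library; the median log2 ratio of downstream pairs overlaps.

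Single pairs changed far more than the median. On chromosome 17, plus strand, the peak from 27029004 to 27029262 held 15.5%, 23.3% and 13.5% of the counts of its pair in cytosol and 74.3%, 80.9% and 79.2% in polysomes. Its partner, from 27047723 to 27047906, lay 18461 bases downstream, and the end with more counts thus differed between the fractions in every library (log2 change 4.11 ± 0.29, adjusted p = 3.18e-07, edgeR). That partner is the stronger of the pair only through the cytosol libraries, so the reversal partly follows from how the pairs were formed. Taken singly the first peak rose (log2 fold change 1.88) and the partner fell (-2.24). On chromosome 15, plus strand, the peak from 44064498 to 44064664 went from 9.83%, 6.33% and 12.4% to 55.6%, 62.1% and 77.1% against its partner from 44085170 to 44085346, 20506 bases downstream (4.18 ± 0.40, adjusted p = 5.64e-06, edgeR). Here too the partner is the stronger only through the cytosol libraries. That partner was also the weaker peak of a downstream pair with the peak from 44063296 to 44063784, of whose counts it held 12.5 ± 4.19% in cytosol and 0.84 ± 0.31% in polysomes (-4.03 ± 0.35). On chromosome 19, plus strand, the peak from 5668195 to 5668496 went from 0.74%, 1.12% and 0.57% to 12.3%, 15.8% and 11.1% against its partner from 5691536 to 5691969 (4.20 ± 0.29, adjusted p = 3.18e-07, edgeR).

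Falls of upstream peaks were as steep. On chromosome 17, minus strand, the peak from 4608088 to 4608506 held 34.1%, 39.0% and 31.0% of its pair in cytosol and 2.12%, 3.73% and 2.62% in polysomes, against a partner from 4574978 to 4575884 that lay 32204 bases downstream (log2 change -4.20 ± 0.28, adjusted p = 2.59e-07, edgeR). The 2 steepest falls share a partner, the 20-base peak at 131095297 on chromosome 9 described among the steepest rises. That peak is the stronger of each pair only through the polysome libraries, so these falls partly follow from how the pairs were formed and are given as values. Against it the peak from 131085625 to 131085868 went from 84.6 ± 2.34% to 10.9 ± 6.88% (-5.58 ± 0.46) and that from 131050992 to 131051279 from 88.3 ± 1.08% to 21.9 ± 5.71% (-4.75 ± 0.35). Taken singly, these peaks had log2 fold changes of -2.18 and -1.31 and the partner one of 3.52.

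With the weaker peak downstream, the largest rise was on chromosome 6, minus strand, where the peak from 86349947 to 86350049 went from 1.19%, 1.22% and 1.41% of its pair in cytosol to 12.9%, 18.8% and 19.2% in polysomes, 36519 bases from its partner (3.99 ± 0.28, adjusted p = 2.37e-06, edgeR). On chromosome 19, minus strand, the peak from 10664224 to 10664498 went from 13.4%, 10.4% and 16.2% to 58.1%, 57.9% and 64.6% (3.33 ± 0.28, adjusted p = 4.13e-06, edgeR). Its partner is the stronger only through the cytosol libraries. Among falls, the peak on chromosome 6, minus strand, from 33190542 to 33190575 went from 50.3%, 53.6% and 51.5% to 7.93%, 4.42% and 5.93% (-4.12 ± 0.32, adjusted p = 2.91e-06, edgeR). The partner of this peak is the stronger only through the polysome libraries. Both switches thus partly follow from how the pairs were formed. In 64 of the 795 called upstream pairs the weaker peak held the minority of counts in every cytosol library and the majority in every polysome library, and in 65 the reverse. Of the 943 called downstream pairs 58 and 67 did so. Such switches were counted among called pairs only, so their rate over all 9352 upstream and 7539 downstream pairs is not given. As partners were ranked by the mean over the same libraries, these counts are descriptive.

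The libraries of cisplatin-treated A549 cells (100 µM), 3 from heavy polysomes and 3 from cytosol, gave the same contrast in other samples. Over the 17833 peaks listed in all 12 libraries, each treatment fitted alone, 3540 (19.9%) were higher and 3475 (19.5%) lower in polysomes with DMSO, and 3526 (19.8%) and 3533 (19.8%) with cisplatin. Of the peaks called higher, 2763 were shared, 78.1% of those with DMSO and 78.4% of those with cisplatin. Of the peaks called lower, 2751 were shared, 79.2% and 77.9%. A total of 0 peaks were called in opposite directions with edgeR, and 0 of the 7041 with an unadjusted p under 0.05 in both treatments had opposite directions. Differences between the treatments were not tested.

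Of the 10 steepest falls 9 were listed in all 12 libraries, and all 9 were lower in polysomes with cisplatin too, by log2 fold changes of -4.15 to -2.001. Of the 10 steepest rises 6 were listed, and 5 were called higher. The exception was the broad peak at 151670942 on chromosome 6, at 34.9, 71.2 and 21.1 CPM in cytosol and 49.1, 164.3 and 16.8 CPM in polysomes with cisplatin, where the fractions overlapped (0.85 ± 0.92, adjusted p = 0.5, edgeR). For comparison, the 20-base peak at 131095297 on chromosome 9 stood at 3.46, 2.13 and 5.44 CPM in cytosol and 58.0, 27.3 and 55.9 CPM in polysomes with cisplatin, beside 51.2, 31.7 and 28.8 CPM in polysomes with DMSO.

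**Figure D5:**
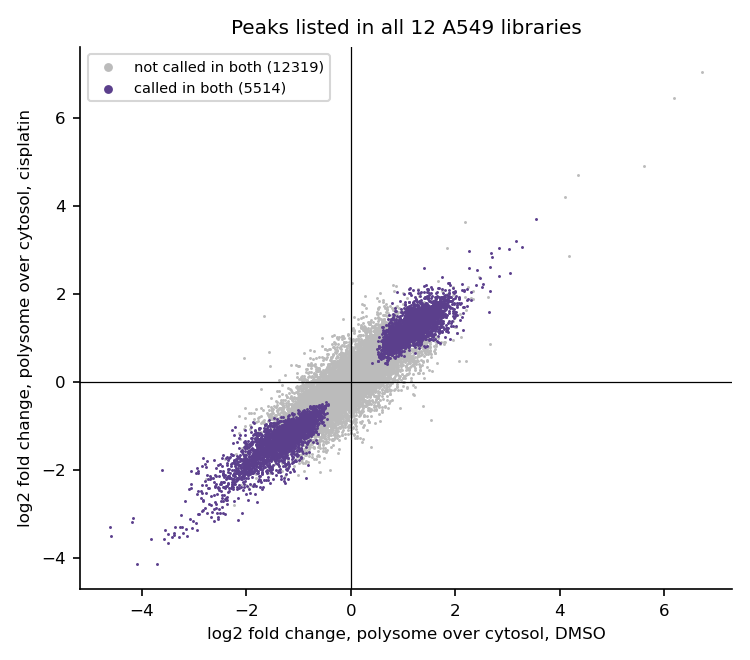
Each point is one of 17833 peaks listed in all 12 A549 libraries, with its log2 fold change of polysome over cytosol in DMSO (x axis) and in cisplatin (y axis), each from its own 6 libraries. Peaks called in both treatments lie in the lower left (2751) and upper right (2763) quadrants and 0 in the others.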

How the data were processed

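Peak lists of 3′-seq libraries were used. Per the labels' protocols, fragments of poly(A)+ RNA were copied with anchored oligo-dT, given 16 PCR cycles, size-selected (150 to 300 bases) and read from 1 end over 50 bases. Tools given in the submitters' processing notes, with no roles, are bedtools 2.17.0, SAMtools 1.1 and Bowtie2 2.2.5. The notes give mm9 as the build, but the lists use human chromosome names and reach position 249233250 on chromosome 1, which fits hg19. The authors deposited whole-number read counts per peak without normalization, the smallest being 5; how they called and filtered peaks is not given in the sources used here. PCR reads carry no molecular identifiers.

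Peaks overlapping by at least 1 base on a strand were merged, each library's counts summed, and peaks listed in all 6 libraries fitted with edgeR 4.0.16 (TMM scaling, robust quasi-likelihood test, R 4.3.3), called at an adjusted p under 0.05. A pair is a peak and its nearest stronger peak within 50 kb, fitted with a term per library. The scripts were tested on simulated data. Named peaks are the 10 steepest called rises and falls of at least 10 CPM in the higher fraction with no overlap (1 per 5 kb), the 6 of highest level, mitochondrial peaks of at least 100 CPM, and up to 4 pairs per kind and direction. The members and rules were chosen with earlier results of these data known, and the comparison of neighbours and of cisplatin libraries after the data were seen. Gene lists were not used, since no hg19 annotation was at hand.

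Replicate numbers come from the labels. Deviations from the fraction means correlated at 0.364, 0.251 and 0.624 between same-numbered libraries over 16929 peaks. Cytosol library 1 correlated better with polysome library 2 (0.464) than with polysome library 1. Cytosol library 2 correlated at 0.223 with polysome library 1. The values thus match library 3 across the fractions but cannot show that libraries 1 and 2 pair by number. The main fit used no pairing, and results with the replicate block assume it. The alternatives were other scaling, count minimums, merging, peak sets, pair distances, DESeq2 1.42.0, a fold threshold, the replicate block and leaving out libraries.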

Additional observations from a re-analysis of the deposited data

How the results depend on the processing

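The count of 7711 peaks called between polysomes and cytosol stayed within 1.5 times of itself with RLE scaling, a mean count of at least 20, merging over gaps of up to 50 bases, mitochondrial peaks left out, peaks of at least 100 bases (an alternative chosen after seeing the data), the 12-library fit and DESeq2 (6920, with 1294 peaks given no adjusted p). It fell to 3327 with polysome library 3 alone, to 3864 when tested against a change of 1.5-fold, and to 2425 of 62423 when every merged peak with a mean count of at least 5 entered and a missing entry was taken as 0; in 305 of these a whole fraction lists no value. Leaving out 1 library gave 4977 to 9372, the lowest without polysome library 2. Upstream pairs, 795 called, gave 344 with partners within 20 kb, 29 within 3 kb and 502 with polysome library 3 alone, and 540 to 960 without 1 library. Downstream pairs, 943 called, gave 407, 70 and 505, and 660 to 1067. With the replicate block the counts were 10861 peaks (5423 higher, 5438 lower), 1181 upstream pairs (554 rose, 627 fell) and 1388 downstream pairs (638 rose, 750 fell), none moved by over 1.5 times. The mitochondrial share differed by -9.55 percentage points, by -9.37 over all listed counts and by -10.7 to -7.71 without 1 library.

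Of the 22 called peaks among those named, 16 were called with polysome library 3 alone (1 library in that arm, assumed to vary like the cytosol libraries), 21 with the block, 18 with all merged peaks, 21, 20 and 20 without cytosol libraries 1, 2 and 3, and 22 without any one polysome library. None changed sign under any alternative in which it was followed. Single peaks were not followed under merging over gaps or in the 12-library fit. Of the 22, 13 entered the fit of peaks of at least 100 bases. With polysome library 3 alone the uncalled peaks at 134225623 on chromosome 7 and 53346485 on chromosome 12 changed sign, to -0.60 and -0.18. The causes were not tested. Low counts limit precision: listed counts start at 5 and a tested peak is listed in every library, so complete losses are not among the tested peaks.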

Other observations

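Peaks listed throughout one fraction and nowhere in the other could not be tested, since an unlisted peak is not a count of 0, and are given as values. A total of 2052 merged peaks stood in all 3 cytosol lists and in no polysome list, and 739 the reverse. Most were small, but 47 of the first kind and 12 of the second had at least 100 counts in each of their 3 libraries. The largest of the cytosol kind lay on chromosome X, plus strand, from 65719739 to 65719898, with 1769, 1753 and 1184 counts, and had no entry even in the long lists of polysome libraries 1 and 2. The next lay on chromosome 7, plus strand, from 145694424 to 145694528, with 1241, 1319 and 715 counts. The largest of the polysome kind lay on chromosome 16, minus strand, from 46712892 to 46713071, with 383, 857 and 412 counts, and on chromosome 17, plus strand, from 34942469 to 34942634, with 406, 662 and 335 counts. These peaks were picked by their lowest count after the data were seen. A further 47392 merged peaks stood in polysome libraries 1 and 2 and in no other library.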
